A study of Homo sapiens with 6 samples.

Results

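Proneural basic helix-loop-helix (bHLH) factors and the E proteins they pair with were followed in NGP, an established human neuroblastoma cell line, after knockdown of CAMKV, a pseudokinase related to the calmodulin-dependent kinases. The set holds 6 genes of 19868 entries in the count table: the proneural factors NEUROD1, NEUROD4 and NEUROG2 and the E proteins TCF3, TCF4 and TCF12, each found by its gene symbol. They were chosen by their counts in CAMKV-KD against Control libraries, so their own differences are given here as a description and carry no test. Messenger RNA was sequenced in 3 libraries of NGP cells with CAMKV knockdown (sh-CAMKV, called CAMKV-KD) and 3 of NGP cells with a control hairpin (sh-control, called Control), all grown in RPMI-1640 with 20% fetal bovine serum. The labels do not tell whether separate cultures were grown for each library, whether the cells were a clone, or whether more than 1 hairpin was used. The p-values below therefore reflect library-to-library spread, possibly technical.

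Proneural factors are transcription factors that start and carry forward neuronal differentiation, and they belong to class II of the bHLH family. They bind DNA as heterodimers with E proteins, the broadly expressed class I, at a short site called the E-box. NEUROG2 acts early in progenitors of sensory and cortical neurons, and in vertebrate embryos it switches on NEUROD1 and NEUROD4, which act later. ID proteins are helix-loop-helix proteins without a DNA-binding region that capture E proteins, and HES and HEY proteins are bHLH repressors that act downstream of Notch and hold proneural genes down. The E proteins TCF3 (E2A), TCF4 (E2-2) and TCF12 (HEB) are not the WNT effectors of similar name, TCF7L1 and TCF7L2.

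Total counts per library ran from 20238281 to 24701564. Levels are CPM, a gene's counts relative to its library's total, scaled by TMM (the trimmed mean of M values), and are given with the SD over 3 libraries. CAMKV itself stood at 24.7 ± 1.25 CPM in CAMKV-KD libraries and 81.9 ± 4.04 CPM in Control libraries. The neuroblastoma markers PHOX2A, HAND2, GATA3 and ISL1 were counted in every library, and the marker list they belong to summed to between 778 and 962 CPM in CAMKV-KD and between 676 and 943 CPM in Control libraries. In that list TH was higher in CAMKV-KD and PHOX2A and ISL1 were lower by the edgeR test used below, and their part in the values below was not tested. Of the Schwann and glial markers, SOX10 had no count in any library, and the 7 markers together reached at most 3.15 CPM in CAMKV-KD and 5.00 CPM in Control libraries. The blood and endothelial list reached at most 1.36 CPM in CAMKV-KD and 0.897 CPM in Control libraries, and the epithelial list at most 3.39 CPM in CAMKV-KD and 1.74 CPM in Control libraries. Fibroblast and stromal markers include PDGFRA and COL1A1. They summed to between 683.5 and 745.6 CPM in CAMKV-KD and between 534 and 703 CPM in Control libraries. By the same test 3 of 6 were higher in CAMKV-KD (COL1A1, LUM and THY1), where 17.3% of all tested genes were higher. PDGFRA, COL1A2 and DCN did not pass, and DCN lay below Control in every CAMKV-KD library (means 2.95 against 5.77 CPM). The part of these markers in the values below was not tested.

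The windows around the annotated starts of the 3 proneural genes are shown because these genes were lower together. Each runs from 250 bases before to 50 after the start and comes from RefSeq on GRCh38.p14, at chr2:181680468-181680767 for NEUROD1 (minus strand), chr4:112516131-112516430 for NEUROG2 (minus strand) and chr12:55019724-55020023 for NEUROD4 (plus strand). Capitals mark an E-box (CANNTG) or the TATA-like run TATATAA, each searched on both strands.

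NEUROD1: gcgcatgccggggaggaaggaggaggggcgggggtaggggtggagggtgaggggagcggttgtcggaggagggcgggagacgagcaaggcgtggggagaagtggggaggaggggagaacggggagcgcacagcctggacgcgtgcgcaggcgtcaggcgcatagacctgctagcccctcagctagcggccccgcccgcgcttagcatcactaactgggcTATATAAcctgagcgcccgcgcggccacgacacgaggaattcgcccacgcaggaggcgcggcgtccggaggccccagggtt

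NEUROG2: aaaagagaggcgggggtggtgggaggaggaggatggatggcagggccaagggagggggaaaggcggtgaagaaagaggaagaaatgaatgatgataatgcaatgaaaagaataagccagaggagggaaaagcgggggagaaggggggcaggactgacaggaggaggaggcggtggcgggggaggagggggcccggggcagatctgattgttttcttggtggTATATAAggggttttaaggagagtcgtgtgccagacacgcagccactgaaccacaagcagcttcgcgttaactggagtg

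NEUROD4: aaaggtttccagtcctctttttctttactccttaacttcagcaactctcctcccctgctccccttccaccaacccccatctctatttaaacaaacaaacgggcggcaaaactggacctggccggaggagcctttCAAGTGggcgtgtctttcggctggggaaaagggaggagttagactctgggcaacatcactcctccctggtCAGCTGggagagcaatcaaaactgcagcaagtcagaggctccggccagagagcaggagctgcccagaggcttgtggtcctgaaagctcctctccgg

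The NEUROD1 and NEUROG2 windows held no E-box, and both held TATATAA, beginning 31 bases before the start of NEUROD1 and 29 bases before that of NEUROG2. For NEUROD1 this covers 1 RefSeq start only. GENCODE 29 lists 2 starts for it, and the outer one, at 181680876, lies outside the window. Of all 34943 such windows, 2.57% held TATATAA and 68.7% held an E-box. The NEUROD4 window held the E-boxes CAAGTG, beginning 116 bases before the start, and CAGCTG, beginning 46 bases before it. CAGCTG stood in 17.9% of all windows. The single TCF3 window held no E-box, 7 of 10 TCF4 windows held one, as did 2 of 5 TCF12 windows. These matches describe letters in the windows and do not show that a factor binds there.

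For all 3 proneural factors the CAMKV-KD libraries lay below the Control libraries without overlap, whereas the E proteins differed less and not in one direction. NEUROD1 was at 18.5% and NEUROG2 at 41.0% of its Control mean, and NEUROD4 was not counted after knockdown. TCF4 was at 52.5%, TCF12 at 74.8% and TCF3 at 117% of the Control mean. In a fit across all 13366 genes with sufficient counts (edgeR's quasi-likelihood test, adjusted p below 0.05), 3 of the 6 members were past the threshold, as were 36.3% of all genes (19.0% lower and 17.3% higher, with a median log2 fold change of 0.0045). The same contrast chose the members, so their count is a description and nothing is read from it. All 6 members passed the filter on low counts, NEUROD4 only through its Control libraries.

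NEUROD1, which drives late steps of neuronal differentiation, had 1364, 1098 and 1264 counts in the CAMKV-KD libraries and 7028, 6734 and 6450 counts in the Control libraries. Scaled, it stood at 55.1, 53.2 and 56.3 CPM in CAMKV-KD, against 290.3, 309 and 289 CPM in Control libraries. The libraries of each group lay close together and the groups were far apart. The means were 54.9 ± 1.6 CPM in CAMKV-KD and 296 ± 11.1 CPM in Control libraries (SD, n = 3 each). The log2 fold change was −2.43 ± 0.045 (SE). The gene codes for protein and occupies bases 181673088 to 181680876 of chromosome 2 (minus strand, GRCh38, GENCODE 29), with 2 exons. In RNA from whole cultures, fewer cells that express a gene and less of its RNA per cell cannot be told apart.

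The NEUROD1 entry shares its locus identifier (MSTRG.16206) with CERKL, a ceramide kinase-like gene on the same strand. CERKL runs from 181536676 to 181680665, so 3101 of the 3312 exon bases of NEUROD1 lie inside its span, but only 236 exon bases, 7.13% of those of NEUROD1, are exonic in both. CERKL stood at 21.8, 21.5 and 23.0 CPM in CAMKV-KD and at 16.7, 19.1 and 18.2 CPM in Control libraries, so it lay above Control in every CAMKV-KD library while NEUROD1 lay below. It rose by 0.29 ± 0.078 on the log2 scale (adjusted p = 0.0349, edgeR), a call that was lost when any single library other than Control 2 was left out (adjusted p up to 0.1). Per kilobase of exon, CERKL was at 27.5, 28.2 and 28.3% of NEUROD1 in CAMKV-KD and at 4.01, 4.29 and 4.38% in Control libraries. With the counts of both entries summed, the log2 fold change of the locus was −2.03.

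**Figure D1:**
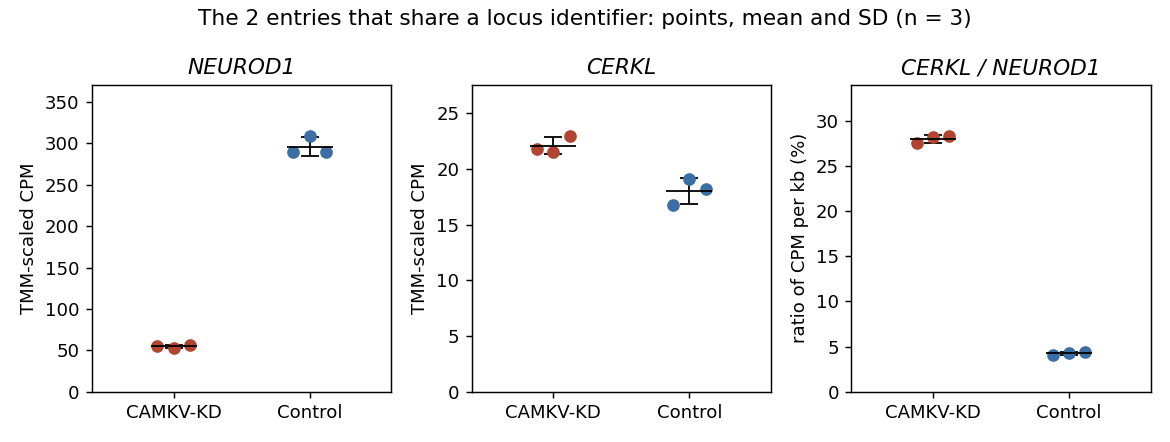
TMM-scaled CPM of NEUROD1 (left) and CERKL (middle) and the ratio of CERKL to NEUROD1 per kilobase of exon in percent (right), with 1 point per library and the mean and SD of 3 libraries. NEUROD1 was lower and CERKL higher in CAMKV-KD, and the ratio was 27.5 to 28.3% in CAMKV-KD against 4.01 to 4.38% in Control libraries.

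NEUROG2, the factor that acts before NEUROD1 in neurogenesis, had 225, 187 and 215 counts in CAMKV-KD and 596, 495 and 453 counts in Control libraries. It stood at 9.09, 9.06 and 9.58 CPM in CAMKV-KD, against 24.6, 22.7 and 20.3 CPM in Control libraries. The groups did not overlap, and the Control libraries were the more spread, with a coefficient of variation of 9.54% against 3.20% in CAMKV-KD. The means were 9.24 ± 0.295 CPM in CAMKV-KD and 22.6 ± 2.15 CPM in Control libraries (SD, n = 3 each), a log2 fold change of −1.29 ± 0.098 (SE). NEUROG2 lies at 112513516 to 112516172 of chromosome 4 (minus strand), and the antisense gene AC023886.1 overlaps it. The strand setting of the counting is not stated, so reads of an overlapping antisense gene cannot be told apart.

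NEUROD4, a relative of NEUROD1, was near the limit of detection. Its counts were 0, 0 and 0 in CAMKV-KD and 12, 10 and 12 in Control libraries, the last equal to 0.496, 0.459 and 0.538 CPM. Against a floor of 3 counts in each CAMKV-KD library (0.133 CPM on average), the knockdown level was at least 3.73-fold lower, the Control mean being 0.498 CPM. The floor covers counting error only. NEUROD4 lies on the plus strand of chromosome 12, from 55019945 to 55030014.

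**Figure D2:**
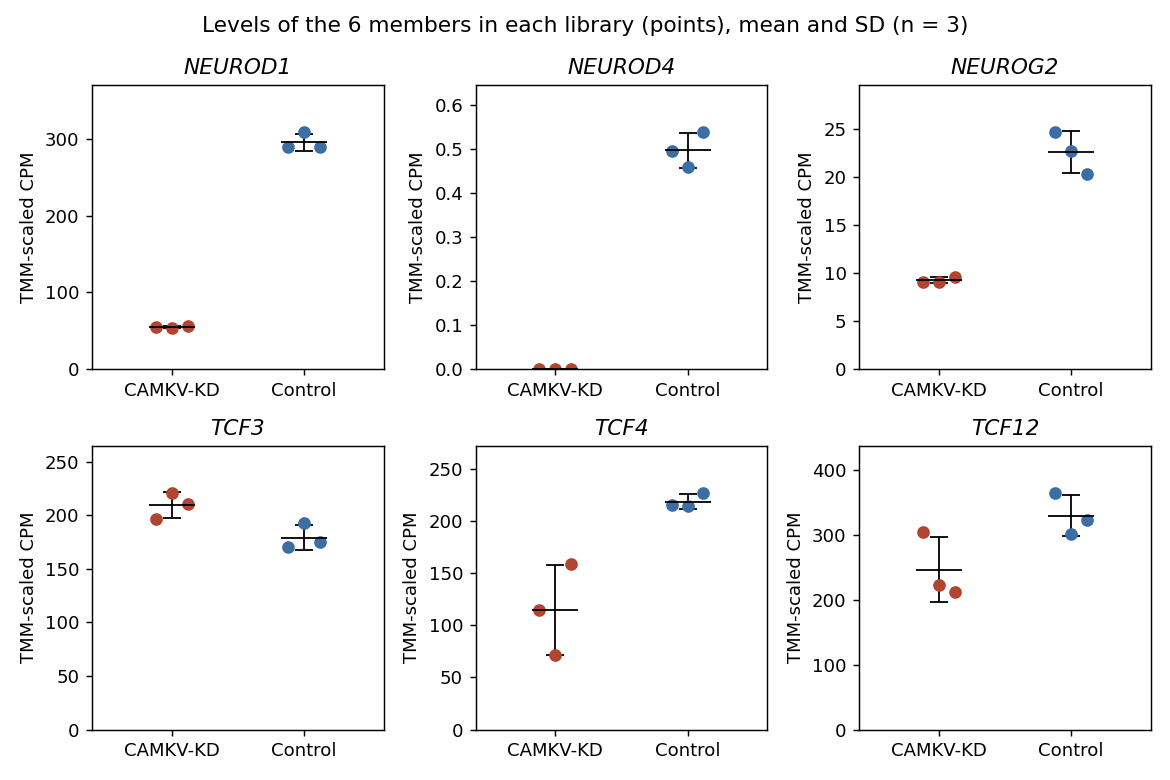
TMM-scaled CPM of each of the 6 genes, with 1 point per library and bars for the mean and SD of 3 CAMKV-KD and 3 Control libraries; each panel has its own axis from 0. The 3 proneural factors (top) were lower in each CAMKV-KD library, TCF3 was higher in each, TCF4 was lower with a wide spread in CAMKV-KD, and the groups overlapped for TCF12.

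Among the E proteins, TCF4 showed the lowest ratio and the widest spread. This factor, mutated in Pitt-Hopkins syndrome, had 2838, 1472 and 3549 counts in CAMKV-KD and 5198, 4668 and 5052 counts in Control libraries. Scaled levels were 115, 71.3 and 158 CPM in CAMKV-KD, against 215, 214 and 227 CPM in Control libraries. All CAMKV-KD libraries were lower than all Control libraries, but they differed from each other by more than the Control libraries did, with a coefficient of variation of 37.9% against 3.23%. The log2 fold change was −0.93 ± 0.29 (SE), and lay between −1.23 without CAMKV-KD 3 and −0.68 without CAMKV-KD 2. TCF4 spans 442457 bases on the minus strand of chromosome 18 (55222331 to 55664787), with 90 annotated transcripts and the antisense genes TCF4-AS1 and TCF4-AS2 inside it. The table gives 1 value for all transcripts of the gene, so a change in which of its starts were used cannot be seen.

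TCF12, mutated in some forms of craniosynostosis, had 7516, 4606 and 4756 counts in CAMKV-KD and 8816, 6571 and 7183 counts in Control libraries. Scaled levels were 304, 223 and 212 CPM in CAMKV-KD, against 364, 302 and 322 CPM in Control libraries. CAMKV-KD 1 lay above Control 2, so the groups overlapped, and the other two CAMKV-KD libraries lay below every Control library. The log2 fold change was −0.42 ± 0.16 (SE), and −0.60 without CAMKV-KD 1. TCF12 lies on the plus strand of chromosome 15 (56918623 to 57299281).

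TCF3, whose product E2A is best known from B cell development, was the only member higher after knockdown. It had 4874, 4558 and 4718 counts in CAMKV-KD and 4115, 4199 and 3899 counts in Control libraries. Scaled levels were 197, 221 and 210.3 CPM in CAMKV-KD, against 170.0, 193 and 175 CPM in Control libraries. The groups did not overlap, though CAMKV-KD 1 and Control 2 were close. The log2 fold change was 0.22 ± 0.067 (SE). TCF3 lies on the minus strand of chromosome 19 (1609290 to 1652605). The groups did not overlap for 5 of the 6 members (4 with CAMKV-KD below and 1 above), and for 52.8% of all tested genes (26.5% below and 26.2% above).

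To set levels of different genes beside each other, CPM was divided by the kilobases of annotated exon. In CAMKV-KD libraries the order was TCF3 (34.4 ± 1.96 CPM per kb), TCF12 (26.1 ± 5.30), NEUROD1 (16.6 ± 0.483), TCF4 (4.12 ± 1.56), NEUROG2 (4.04 ± 0.129) and NEUROD4 (not counted). In Control libraries it was NEUROD1 (89.4 ± 3.34 CPM per kb), TCF12 (34.9 ± 3.38), TCF3 (29.5 ± 1.96), NEUROG2 (9.86 ± 0.941), TCF4 (7.85 ± 0.253) and NEUROD4 (0.126 ± 0.0101). By this length, the exon union, the ranges of neighbours overlapped only for TCF4 and NEUROG2 in CAMKV-KD libraries. TCF12 and TCF3 nearly met, at 32.15 and 32.39 CPM per kb in CAMKV-KD and at 31.92 and 31.69 CPM per kb in Control libraries. NEUROD4 was last in both groups by each of the 3 lengths used. By group means TCF12 also held the same place in both groups by each length, with rank 2 by the exon union and the longest transcript. By the mean length of coding transcripts TCF4 had rank 3 and TCF12 rank 1 in both groups. In CAMKV-KD, however, TCF12 and TCF3 then took nearly equal shares of the summed E protein level (33.3 to 45.8% against 34.8 to 46%). By the longest transcript these shares overlapped too (34.6 to 46.4% against 40.9 to 52.2%). The order of TCF12 and TCF3 in CAMKV-KD is thus not settled by these lengths.

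Relative to the E proteins, NEUROD1 mRNA was lower in CAMKV-KD by each length, but the ratio itself depended on the length. The direction was fixed for any length, as NEUROD1 was at 18.5% of its Control mean and no E protein was below 52.5%. By the exon union NEUROD1 was at 24.2, 25.7 and 27.1% of the summed E protein level per kb in CAMKV-KD, against 118, 131 and 123% in Control libraries. By the longest transcript it averaged 19.0% in CAMKV-KD and 86.1% in Control libraries. By the mean coding transcript it averaged 7.98% in CAMKV-KD and 33.9% in Control libraries, so that it lay above the E protein sum in Control libraries by the exon union alone. The sum of the 3 E proteins by the exon union was 64.6 ± 3.50 CPM per kb in CAMKV-KD and 72.2 ± 1.77 CPM per kb in Control libraries (SD, n = 3 each). Within this sum TCF3 took 47.2, 58.1 and 55.2% in CAMKV-KD, against 37.7, 44.4 and 40.5% in Control libraries. TCF4 took 6.0, 4.10 and 9.06% in CAMKV-KD, against 10.4, 10.8 and 11.5% in Control libraries, and TCF12 took the rest, with overlapping groups. By the mean coding transcript and the longest transcript, TCF3 averaged 39.8 and 46.6% in CAMKV-KD, against 26.8 and 33.4% in Control libraries. In the same order of lengths, TCF4 averaged 20.6 and 13.5% in CAMKV-KD, against 31.4 and 21.7% in Control libraries. By the mean coding transcript its share was thus larger than that of TCF3 in Control libraries. The exon union of TCF4 (27828 bases) is far longer than its mean coding transcript (2274.6 bases). The TCF3 share was larger in CAMKV-KD by each of the 3 lengths, although the share itself depended on the length. As TCF3 alone of the E proteins was higher in CAMKV-KD, that direction was fixed and the lengths do not test it.

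**Figure D3:**
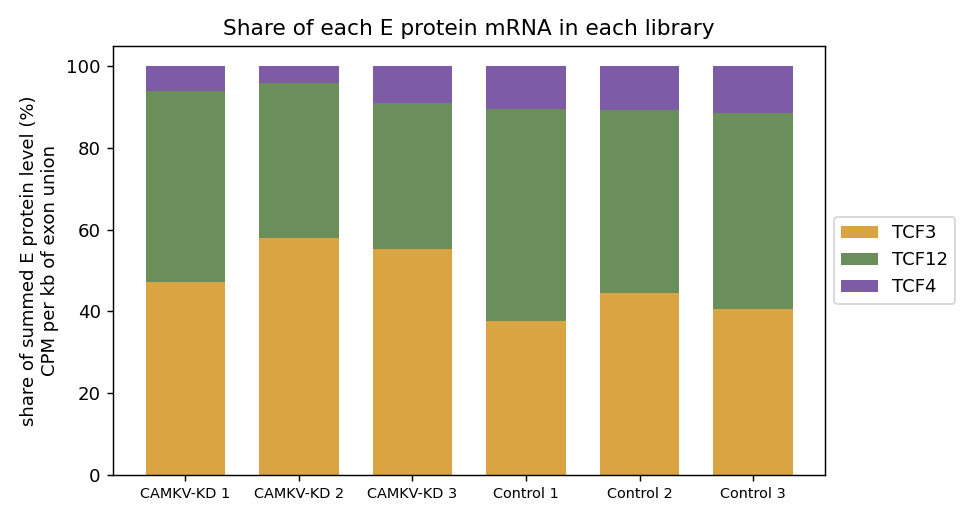
Share of TCF3, TCF12 and TCF4 in the summed E protein level of each library, in percent of CPM per kb of exon union; bars stack to 100% with no error. The TCF3 segment was larger in the CAMKV-KD libraries (47.2 to 58.1%) than in the Control libraries (37.7 to 44.4%), and the TCF4 segment smaller. The sizes of the segments depend on the length used, and TCF4 took a larger share by the other lengths.

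The gene lists from here on were written with earlier results of these data known, so their counts beside all genes are a description. The other bHLH factors of the nervous system were compared to ask which further partners of the E proteins differed. Of 19 listed, 10 had enough counts to test, and 4 fell in CAMKV-KD while none rose, with a median log2 fold change of −0.285, where 19.0% of all tested genes were lower and 17.3% higher. NEUROD2, the cortical relative of NEUROD1, fell by 1.72 ± 0.17 (SE) on the log2 scale to 3.96, 3.34 and 2.63 CPM in CAMKV-KD, against 11.4, 10.8 and 10.5 CPM in Control libraries (adjusted p = 0.00144, edgeR). NHLH1, a bHLH factor of newly formed neurons, fell by 1.56 ± 0.30 (SE; adjusted p = 0.0123, edgeR). BHLHE22, a factor of cortical and spinal neurons, fell by 0.65 (adjusted p = 0.0194, edgeR), a call lost without CAMKV-KD 1, Control 2 or Control 3 (adjusted p up to 0.0608). With the block BHLHE22 lost its call too (adjusted p = 0.0671, edgeR).

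HAND2, which belongs to the core regulators of sympathetic neurons, did not pass, although each CAMKV-KD library lay above each Control library. It stood at 423, 271 and 251 CPM in CAMKV-KD, against 217, 115 and 92.3 CPM in Control libraries. Control 1 stood well above the other Control libraries. The log2 fold change was 1.15 ± 0.39 (SE; adjusted p = 0.0717, edgeR). HAND2 was called at 1.6 without Control 1 (adjusted p = 0.0217, edgeR) and by DESeq2 (adjusted p = 0.0135). With the replicate number as a block it was called at 1.21 (adjusted p = 0.0159, edgeR).

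The inhibitors of E proteins rose together. All 4 ID genes were higher in CAMKV-KD under each of the alternatives run, with a median log2 fold change of 0.913, where 17.3% of all tested genes were higher. For all 4 each CAMKV-KD library lay above each Control library, as for 26.2% of all tested genes. ID3 rose by 1.08 ± 0.044 (SE), with 134, 137 and 130.5 CPM in CAMKV-KD against 64.6, 60.3 and 64.4 CPM in Control libraries (adjusted p = 0.00013, edgeR). ID2, a direct inhibitor with a known place in neuroblastoma biology, rose by 0.69 ± 0.035 (SE), with 252, 242 and 237 CPM in CAMKV-KD against 149, 152 and 153 CPM in Control libraries (adjusted p = 0.000214, edgeR). ID1 rose by 0.74 (adjusted p = 0.000941, edgeR) and ID4 by 1.23 (adjusted p = 0.0023, edgeR). Summed over the family, ID mRNA was between 450.2 and 458.2 CPM in CAMKV-KD libraries and between 256 and 261 CPM in Control libraries.

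The HES and HEY list, which also holds BHLHE40, was divided. Of 8 tested genes 2 rose and 4 fell, BHLHE40 among them (median −0.684), where 17.3% of all tested genes were higher and 19.0% lower. HES1, the main Notch effector that represses proneural genes, rose by 0.54 ± 0.074 (SE), with 26.8, 24.6 and 26.6 CPM in CAMKV-KD against 18.4, 18.4 and 16.8 CPM in Control libraries (adjusted p = 0.00376, edgeR). HEY1, a related repressor, rose by 1.07 ± 0.067 (SE), with 45.3, 47.6 and 49.1 CPM in CAMKV-KD against 21.2, 22.7 and 23.6 CPM in Control libraries (adjusted p = 0.00037, edgeR). HES6, which in mouse and frog embryos is induced by proneural factors and opposes HES1, fell by 1.0 ± 0.079 (SE), with 26.7, 26.6 and 28.2 CPM in CAMKV-KD against 58.0, 49.1 and 55.5 CPM in Control libraries (adjusted p = 0.000704, edgeR). HES7, an oscillating repressor of somite formation, fell by 2.82 to 1.53 ± 0.458 CPM in CAMKV-KD, against 10.9 ± 0.399 CPM in Control libraries (adjusted p = 0.000881, edgeR), and BHLHE40, a repressor of the circadian and hypoxic responses, fell by 1.49 (adjusted p = 0.00059, edgeR). HES2 fell, with 5, 0 and 4 counts in CAMKV-KD against 39, 40 and 22 counts in Control libraries (adjusted p = 0.0156, edgeR), a call lost without Control 2 (adjusted p = 0.0503). It passed the filter on low counts only through its Control libraries, where it is high.

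The listed genes known to be induced by proneural factors in vertebrate neurogenesis fell more often than they rose, the list having been written with earlier results known. Of 34 listed, 31 were tested, 13 fell and 3 rose (median −0.209), where 19.0% of all tested genes were lower. The Notch ligand DLL3 fell by 1.05 ± 0.073 (SE), with 22.1, 21.4 and 19.5 CPM in CAMKV-KD against 45.6, 42.7 and 42.6 CPM in Control libraries (adjusted p = 0.000505, edgeR). DLL1, the ligand through which proneural cells inhibit their neighbours, fell by 0.79 ± 0.095 (SE; adjusted p = 0.00261, edgeR). RND2, a small GTPase that NEUROG2 induces in migrating cortical neurons of the mouse, fell by 1.06 ± 0.14 (SE), with 6.67, 6.59 and 7.98 CPM in CAMKV-KD against 15.6, 12.6 and 16.0 CPM in Control libraries (adjusted p = 0.00363, edgeR). The groups did not overlap for any of these 3 genes, where CAMKV-KD lay wholly below Control for 26.5% of all tested genes. HES6 and NHLH1, given above, belong to this list too.

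ST18, a zinc finger factor of the MYT1 family, fell by 2.08 (adjusted p = 0.0258, edgeR), but Control 1 had 2.93 CPM and Control 2 and 3 had 9.91 and 10.05 CPM. Its call was lost without any single library other than Control 1 (adjusted p up to 0.0822) and with limma-voom (adjusted p = 0.0829). The remaining members that fell were MYT1L, SCRT1, STMN2, TUBB3, CDC25B, SOX11 and RND3, named after their values were seen, with log2 fold changes between −0.94 (SCRT1) and −0.14 (RND3). The neuronal microtubule genes among them, TUBB3 and STMN2, fell by 0.64 and 0.67. INSM1, a zinc finger factor shared by neurons and endocrine cells, had 45.3, 50.5 and 5.44 CPM in CAMKV-KD, against 59.7, 60.7 and 58.7 CPM in Control libraries. CAMKV-KD 3 was far below the other CAMKV-KD libraries, and INSM1 did not pass at −0.82 ± 0.76 (SE; adjusted p = 0.45, edgeR), but was called at −0.32 without CAMKV-KD 3 (adjusted p = 0.0298). Members that rose were LZTS1 at 0.48 (adjusted p = 0.00104, edgeR), ELAVL2 at 0.71 (adjusted p = 0.032, edgeR) and SCRT2 at 0.24 (adjusted p = 0.0166, edgeR). ELAVL2 lost its call without CAMKV-KD 1, CAMKV-KD 2, Control 1 or Control 2 (adjusted p up to 0.0865) and SCRT2 without CAMKV-KD 3, Control 1 or Control 3 (adjusted p up to 0.0554), which left 1 riser without Control 1.

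**Figure D4:**
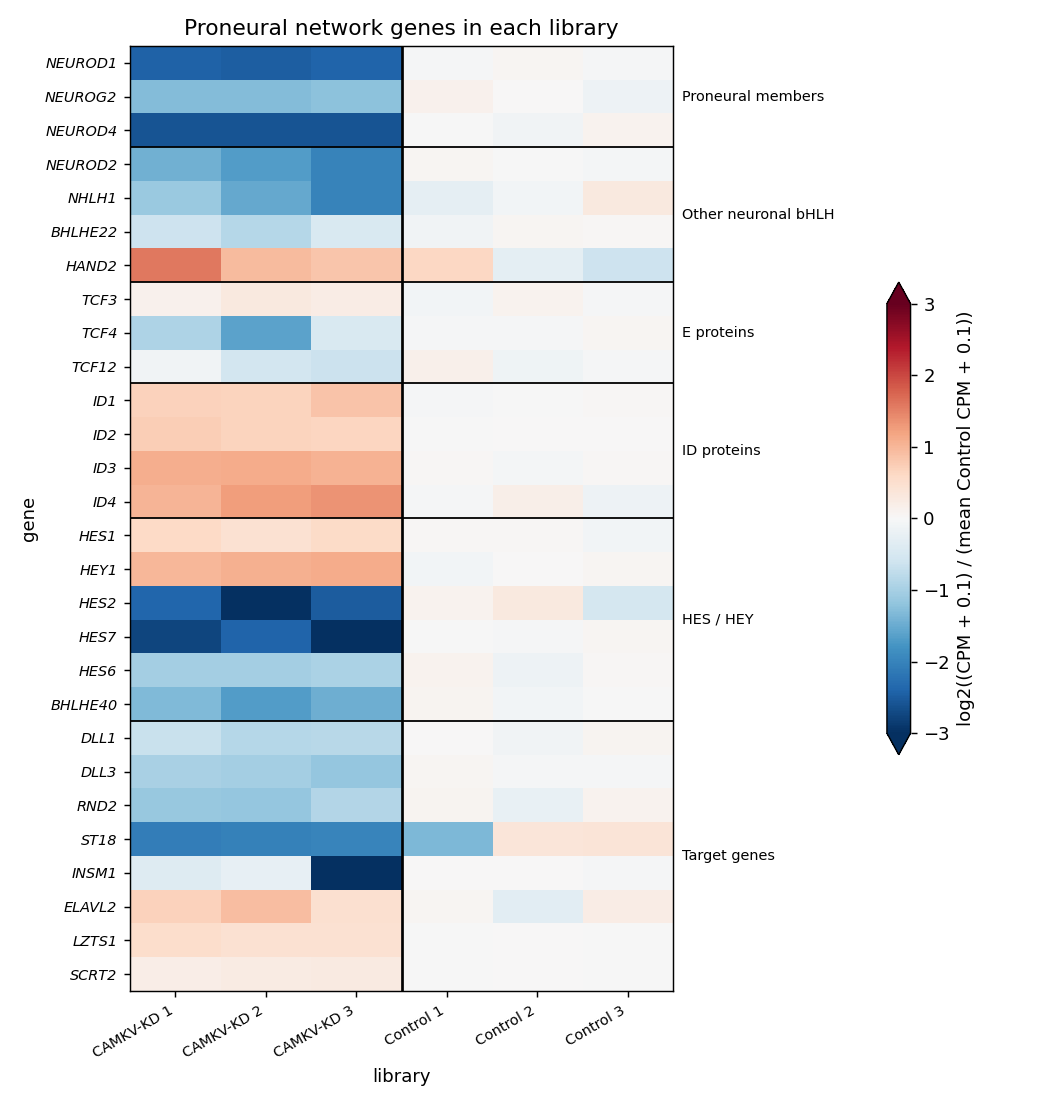
Heat map of log2((CPM + 0.1) / (mean Control CPM + 0.1)) for each library (columns, CAMKV-KD left) and gene (rows, in blocks by role); colours end at −3 and 3. ID1 to ID4, HES1 and HEY1 were red and NEUROD1, NEUROG2, NEUROD4, NEUROD2, HES6, DLL1, DLL3 and RND2 blue in all 3 CAMKV-KD libraries, and INSM1 was far lower in CAMKV-KD 3 than in CAMKV-KD 1 or CAMKV-KD 2.

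The listed cofactors of E proteins rose more often than they fell, this list too having been written with earlier results known. Of 16 tested, 8 rose and 1 fell (median 0.315), where 17.3% of all tested genes were higher. The acetyltransferases EP300 and CREBBP, co-activators recruited by E proteins, rose by 0.64 ± 0.045 and 1.2 ± 0.15 (SE; adjusted p = 0.000522 and 0.00298, edgeR). EP300 stood at 223, 219 and 224 CPM in CAMKV-KD, against 142, 150.0 and 136 CPM in Control libraries. Of the LIM-only proteins, which join bHLH complexes through LDB1, LMO1 rose by 0.76 (adjusted p = 0.015, edgeR) and LMO3 by 0.57 (adjusted p = 0.0182, edgeR). LMO1 lost its call when CAMKV-KD 1 (adjusted p = 0.0519) or CAMKV-KD 3 (adjusted p = 0.0515) was left out, and LMO3 without CAMKV-KD 1, CAMKV-KD 3, Control 1 or Control 2 (adjusted p up to 0.062). The other risers were KAT2A, LMO4, SSBP2 and SSBP3, named after their values were seen, with log2 fold changes between 0.30 and 0.37. LDB2, a LIM-domain binding partner, fell by 0.75 (adjusted p = 0.0148, edgeR). The co-repressors CBFA2T2, CBFA2T3 and RUNX1T1, named after their values were seen, did not pass at 0.86, −0.40 and −0.43.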

How the data were processed

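RNA sequencing of NGP cells gave 6 libraries, 3 CAMKV-KD and 3 Control, grouped by title. The authors deposited raw whole-number counts per gene entry. FastQC 0.11.2, StringTie 1.3.5, HISAT2 2.1.0 and the build GRCh38.p13 are named in the submitters' processing notes. How counts were taken from StringTie, and with which strand setting, is not given in the sources used here. Library totals set the precision: 3 counts in a library are 0.121 to 0.145 CPM.

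The test was that of edgeR 4.0.16 under R 4.3.3: filterByExpr, TMM, and the quasi-likelihood F-test with group as the only term, with Benjamini-Hochberg adjustment over 13366 genes. SE is the absolute log2 fold change over the square root of F. The steps were run on simulated counts with few changed genes and a single dispersion for all genes. That setting is simpler than these data, so it checks the code only. Entries that repeat a symbol (126) keep it only for the highest mean. Between pairs of libraries the chi-square statistic per degree of freedom was 41.5 to 52.1 within groups and 104.7 to 119.2 between groups, so all were kept. Positions and exon lengths are from GENCODE 29 on GRCh38, matched by symbol, and the promoter windows from RefSeq on GRCh38.p14, where all 6 members matched.

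The members and lists were chosen with earlier results of these data known. The text names the members, entries of their loci, 16 genes set by name, and from each list up to 4 genes that passed in each direction, ranked by fold change (others are marked). Some genes of these lists entered the counts and are not reported by name here. Alternatives were other scalings (DESeq2 1.42.0 size factors, library totals, upper quartile), no filter, a replicate block, DESeq2, limma-voom (limma 3.58.1), each library left out, and other gene lengths.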

Additional observations from a re-analysis of the deposited data

How the results depend on the processing

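Under every alternative run, the members kept their direction. The log2 fold change of NEUROD1 was −2.37 with library totals and −2.03 with the entries of its locus summed, and that of TCF4 lay between −1.23 and −0.68. NEUROD4 was at least 3.74-fold lower with DESeq2 size factors, 3.58-fold with library totals and 3.80-fold with the upper quartile, and 3.57 to 3.90-fold when a library was left out. Its bound was not computed with DESeq2, limma-voom, no filter or the block. The number of genes called ran from 3854 to 3980 with a library left out and was 5781 with DESeq2. Library totals moved the median of all genes to 0.064 on the log2 scale.

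Same-numbered libraries of the groups did not deviate together over genes (correlations −0.0133, −0.0606 and −0.034). No library correlated best with its own number. These correlations cover many genes at once, so they cannot show whether the number links libraries for single genes. With the replicate number as a block, 3337 genes were called, 1526 of them higher. The block left 2 other neuronal bHLH genes lower and 1 higher, 0 other class II bHLH genes lower, 1 proneural target gene higher and 2 calmodulin and CaMKII genes lower. NHLH1, BHLHE22, TWIST1, HES2, LMO1, LMO3, ELAVL2, SCRT2, ST18, CAMK2A, CAMK2D and CERKL lost their calls with the block (adjusted p from 0.0524 to 0.114, edgeR). HAND2 gained a call with it.

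Of other neuronal bHLH genes, 1 was higher with library totals and 2 with DESeq2, and 0 to 1 with a library left out. With a library left out, other class II bHLH genes had 0 to 2 higher and 0 to 2 lower, proneural target genes 1 to 3 higher, calmodulin and CaMKII genes 2 to 4 lower and TCF/LEF namesakes 0 to 1 higher.

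Levels per length depend on the length. The ranks given here are of group means, and TCF12 and TCF3 were nearly equal in CAMKV-KD by the mean coding transcript. By the longest transcript, Control ranks were 4 for TCF4 and 5 for NEUROG2. By the mean coding transcript, CAMKV-KD ranks were 1 for TCF12, 2 for TCF3, 3 for TCF4 and 4 for NEUROD1, and Control ranks were 1 for TCF12, 2 for NEUROD1, 3 for TCF4, 4 for TCF3 and 5 for NEUROG2. The length alternatives for E protein shares and for NEUROD1 relative to the E proteins were chosen after seeing the data. The cause of the other changes was not tested. Counts of 12 or fewer limit NEUROD4.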

Other observations

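Calmodulin is known to bind the bHLH region of E proteins, and CaMKII acts on NEUROD1 in rodent neurons. Of 7 calmodulin and CaMKII genes, 4 fell and none rose (median −0.296), where 19.0% of all tested genes were lower. CALM2 fell by 0.16 and CALM3 by 0.30 (adjusted p = 0.00789 and 0.00853, edgeR), with means of 635 and 322 CPM in CAMKV-KD against 709 and 396 CPM in Control libraries. CAMK2D fell by 0.57 (adjusted p = 0.0242, edgeR) and CAMK2A fell, with 3, 4 and 0 counts in CAMKV-KD against 15, 16 and 16 counts in Control libraries (adjusted p = 0.0331, edgeR). CAMK2D lost its call without any one of the Control libraries (adjusted p up to 0.0708), and CAMK2A without any one of the Control libraries or CAMKV-KD 1 (adjusted p up to 0.0942), which left 2 lower genes without any one Control library. CAMK2A passed the filter on low counts only through its Control libraries, where it is high, and its call was also lost without the filter (adjusted p = 0.0601).

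Of 18 bHLH partners of other lineages, 5 were tested. TWIST1, a factor of mesenchyme and neural crest, fell by 1.80 (adjusted p = 0.0213, edgeR), with 15.7, 12.8 and 27.8 CPM in CAMKV-KD against 92.7, 58.7 and 45.1 CPM in Control libraries. Its call was lost without CAMKV-KD 1, CAMKV-KD 2, Control 1 or Control 2 (adjusted p up to 0.0734). LYL1, a blood factor, rose by 1.14 to 4.15 ± 1.01 CPM in CAMKV-KD, against 1.88 ± 0.625 CPM in Control libraries (adjusted p = 0.0412, edgeR), a call lost without CAMKV-KD 1, CAMKV-KD 2, Control 1 or Control 3 (adjusted p up to 0.116). Of the WNT effectors named like E proteins, TCF7L1 fell by 0.50 (adjusted p = 0.00862, edgeR). TCF7L2 was at 0.50 and did not pass, but was called at 0.72 without Control 1 (adjusted p = 0.0221).

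The genes whose levels over the 6 libraries were most like those of NEUROD1, by the distance between centred log2 CPM, were RGS4 (distance 0.17), TSPAN2 (0.212) and TUBA4A (0.231), of 9540 entries with a mean of at least 10 CPM. RGS4, a regulator of G protein signalling, averaged 34.4 CPM in CAMKV-KD and 173 CPM in Control libraries. For NEUROD4 they were TSPAN2 (0.259), SCN1A (0.278) and NEUROD1 (0.279), of 12534 entries with a mean of at least 1 CPM, where the distance depends on the 0.1 CPM added to its zeros. Of 9541 entries at 10 CPM or more, those nearest to NEUROG2 were RAB6B, CRABP2 and FAM57B (0.159 to 0.165). For TCF3 they were POP5, FZD1 and ZNF189 (0.0484 to 0.0924), for TCF4 INPP5J, ARHGEF18 and COCH (0.263 to 0.286), and for TCF12 BTG1, HYAL2 and CD3EAP (0.123 to 0.184).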
